A study of Homo sapiens with 12 samples.

Results

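The genes described here are 44 genes of DNA replication and of the passage from G1 to S phase, out of 59087 features in the count table. They were chosen by symbol from general knowledge of the replication machinery, with earlier results of these data known. All 44 passed the filter on low counts. The cells were SH-SY5Y, a human neuroblastoma cell line that divides in culture and resembles immature sympathetic neurons. In the knockout groups FMR1 had been disrupted in 3 lines made independently; the labels do not say how FMR1 was disrupted or whether each line is a clone. The product of FMR1, the protein FMRP, binds messenger RNAs and controls their translation. The groups were FMR1-KO cells in heavy SILAC medium, FMR1-KO cells in light SILAC medium, wild-type cells in heavy medium and wild-type cells in light medium, with 3 poly(A) RNA libraries each, 12 in all. All cells had grown for 2 weeks in DMEM:F-12 SILAC medium with GlutaMAX, sodium bicarbonate and dialyzed fetal bovine serum, with lysine and arginine that carried heavy isotopes of carbon and nitrogen in the heavy medium. In the knockout groups the number of a library is the number of its line, so each line gave 2 libraries. Nothing in the labels says that the wild-type libraries came from separate cultures, so the p-values measure the spread between these samples, which may be technical. In any comparison of knockout with wild type, the disruption of FMR1 cannot be told apart from what happened while a line was made.

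Replication is prepared in G1, when the origin recognition complex (ORC), CDC6 and CDT1 load the MCM helicase onto DNA, a step called licensing. At the start of S phase CDC45 and the GINS complex join and activate the helicase, polymerases copy the strands, and the sliding clamp PCNA, which the RFC complex loads, holds the polymerases on DNA. The E2F transcription factors switch on many of these genes late in G1, after cyclin-dependent kinases have inactivated the retinoblastoma protein, and the messages are most abundant around G1/S. In bulk RNA a lower level can come from fewer cells in S phase or from less RNA per cell, and these cannot be told apart here.

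The libraries held between 25935152 and 40257027 counts. FMR1 itself, on chromosome X, was at 22.4, 12.8 and 7.19 CPM (the count scaled to a common library size) in knockout lines 1, 2 and 3 in heavy medium and at 11.4, 11.5 and 9.06 CPM in light medium, against 35.9 to 42.0 CPM in the 6 wild-type libraries. The heavy library of line 1 kept 59.3% of the wild-type mean, the other 5 knockout libraries 19.1% to 33.9%. This library also stood apart from the light library of its own line: over all genes tested, their deviations from the knockout mean of the medium had a correlation of 0.0496, against 0.586 and 0.646 for lines 2 and 3. The share of counts from mitochondrially encoded genes was 10.9% to 12.2% in knockout libraries and 9.53% to 10.5% in wild-type libraries, with no overlap, and its part in the differences below was not tested. Of the 10 markers of adrenergic neuroblastoma cells, all were detected, and 9 were at 26.6 CPM or more in every library; tyrosine hydroxylase (TH), a defining enzyme of these cells, was near 0, at most 1.04 CPM. Their sum was 6429 to 8726 CPM in knockout and 8506 to 9485 CPM in wild-type libraries, and GATA3 and DBH passed the test over both media, both lower. Of the 8 mesenchymal markers, 5 were detected, summing to 60.5 to 76.5 CPM in knockout and 86.8 to 91.6 CPM in wild-type libraries, and DCN, PRRX1 and FAP were at 0 in every library; PDGFRB and LUM passed, both lower. The 5 epithelial markers summed to at most 5.44 CPM and the 5 blood or vessel markers to at most 1.24 CPM in any library, with KRT5, KRT14, PTPRC, CD3E and HBB at 0 in each, and the epithelial keratin KRT19 passed, higher in knockout (1.51 to 4.21 CPM) than in wild-type libraries (0.71 to 1.24 CPM). The part of these markers in the differences was not tested.

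Over both media, 13 of the 44 genes were lower in knockout than in wild-type cells and 0 were higher. This is 29.5% of the genes, against 9.78% lower and 15% higher of all 16704 genes tested. The changes were small. The log2 fold changes of knockout over wild type ran from -0.56 for E2F7 to 0.12 for LIG1, with 35 of 44 below 0, and their median was -0.12, against 0.0029 over all genes tested. The test was edgeR's quasi-likelihood F test on the counts with medium as a covariate, with p-values adjusted over all genes tested by the Benjamini-Hochberg method and a threshold of 0.05; adjusted p refers to it throughout. At an unadjusted p under 0.05, 22 genes were lower and 1, LIG1, was higher. Counts at an unadjusted p stand here and below without the share of all genes at that threshold, so they do not show an excess. The 13 genes that fell were RRM2, E2F7, E2F2, RFC4, CCNE2, UHRF1, PCNA, CHAF1A, ORC6, RFC3, MCM3, POLE and MCM7. Without the heavy library of line 1, which kept the most FMR1 message, the same 13 genes were lower. The share of all genes lower in that fit is not given. The count was 23 without the heavy and 20 without the light library of line 3, with 0 higher in both, against 14.6% and 15.5% lower and 17.5% and 19.5% higher of all genes in those fits. It was 8 without line 1, 8 without line 2 and 24 without line 3, where 1 was higher, against 0 without line 1 or line 2. All genes in those fits were lower at 5.21%, 3.73% and 20.5% and higher at 8.65%, 6.44% and 23.1%. The fit over both media counts 6 knockout libraries that stand for 3 lines. With counts summed per line, 3 against 3, 1 gene remained lower, RRM2, and 0 were higher (2.27% of the genes, against 0.446% lower and 1.09% higher of all genes), while 16 were lower and 0 higher at an unadjusted p under 0.05.

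**Figure D1:**
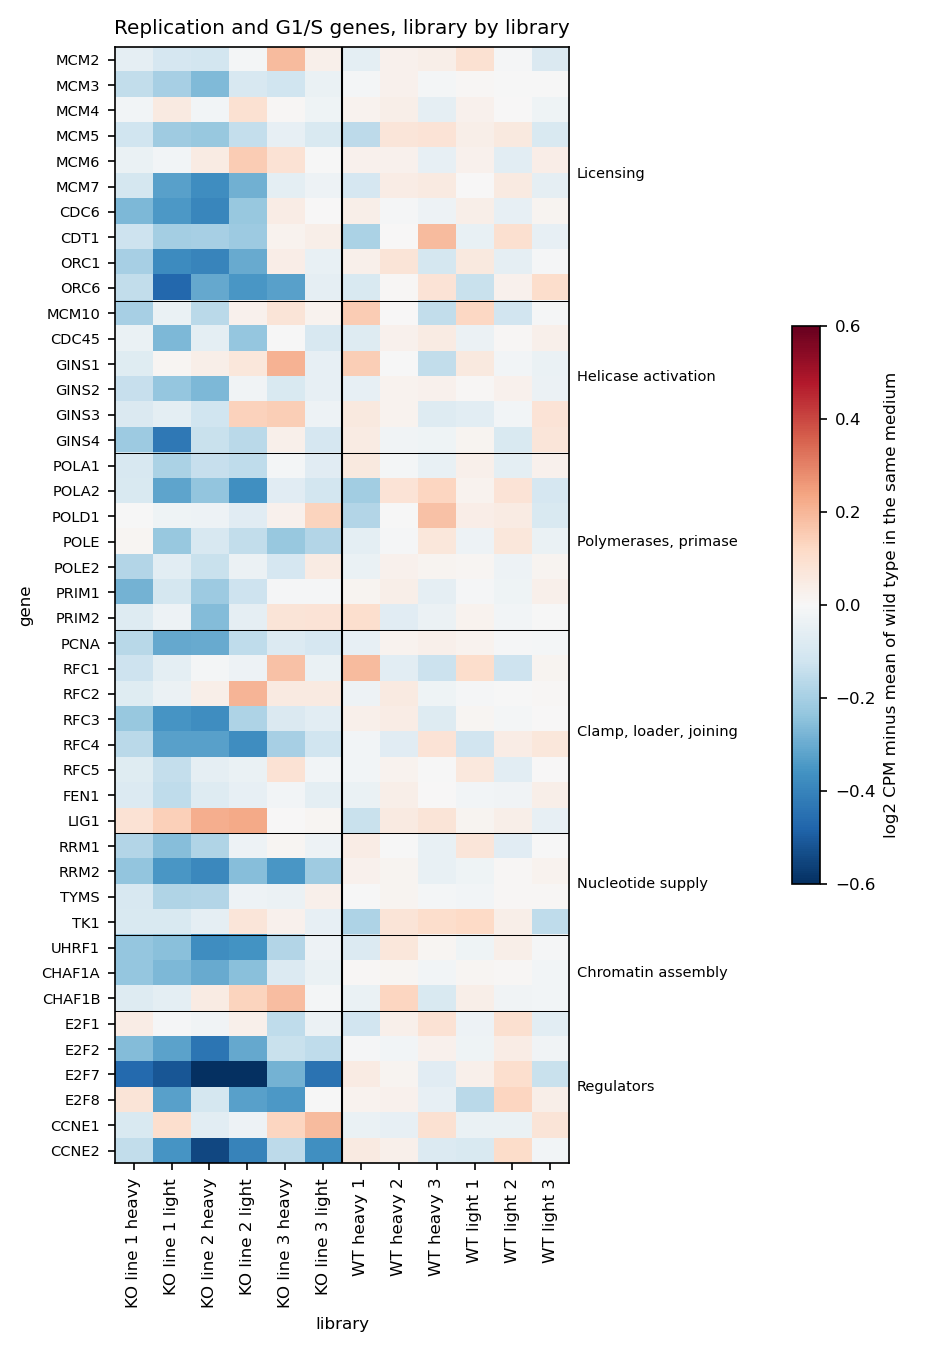
Difference of each gene's log2 CPM from the mean of the 3 wild-type libraries of the same medium, 1 row per gene and 1 column per library, with the 6 knockout libraries (KO, by line) left of the 6 wild-type libraries (WT). Colours end at -0.6 and 0.6, and E2F7 in line 2 lies beyond. Blue is most frequent in lines 1 and 2. RRM2, E2F2, E2F7 and CCNE2 are among the genes that are blue in all 6 knockout libraries, and LIG1 is red in lines 1 and 2.

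Among the genes of nucleotide supply, RRM2 had the smallest p of the 44. It encodes the small subunit of ribonucleotide reductase, which makes deoxyribonucleotides and whose level limits their supply in S phase (chromosome 2, 10120698 to 10131419, plus strand, GRCh38). RRM2 stood at 258, 233 and 239 CPM in heavy medium and 213, 228 and 235 CPM in light medium in knockout lines 1, 2 and 3, against 310, 307 and 295 CPM in heavy and 267, 273 and 275 CPM in light medium in wild-type cells. Every knockout library was below every wild-type library. The mean was 234 ± 14.6 CPM in knockout and 288 ± 18.5 CPM in wild-type cells (SD, n = 6 each), with -0.30 as the log2 fold change (SE 0.039, adjusted p = 0.000581). On counts summed per line the log2 fold change was -0.30 with an adjusted p of 0.0293, which was 0.106 without the light library of line 1 and 0.0618 without the first heavy wild-type library. The other 3 genes of this role did not pass: RRM1, the large subunit of the same enzyme, had -0.11 (adjusted p = 0.13), thymidylate synthase (TYMS) -0.081 (adjusted p = 0.164) and thymidine kinase TK1 -0.036 (adjusted p = 0.696). RRM2 shares exon sequence on its own strand with a second annotated gene, and 3 pseudogenes of its name were in the table with at most 10 counts in a library.

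Among the regulators, 3 of 6 fell. E2F7, an atypical E2F that represses E2F target genes (chromosome 12, 77021247 to 77065580, minus strand), had the largest log2 fold change of the 44 genes. It was at 12.6, 9.62 and 14.3 CPM in heavy and 10.6, 8.22 and 11.2 CPM in light medium in knockout lines 1, 2 and 3, against 18.0, 17.6 and 16.6 CPM in heavy and 15.5, 16.3 and 13.8 CPM in light medium in wild-type cells. Each knockout library lay below the wild-type libraries of its own medium, although the heavy library of line 3 was above the lowest light wild-type library. The mean was 11.1 ± 2.15 CPM in knockout and 16.3 ± 1.51 CPM in wild-type cells (SD, n = 6 each), a fold of 0.679 (log2 fold change -0.56, SE 0.0985, adjusted p = 0.00256). Its adjusted p was 0.0651 on counts summed per line.

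E2F2, an activating E2F (chromosome 1, 23506430 to 23531220, minus strand), had 73.1, 64.6 and 79.8 CPM in heavy and 66.4, 67.1 and 74.6 CPM in light medium in the knockout lines, against 87.0, 86.4 and 89.1 CPM in heavy and 81.6, 85.6 and 81.8 CPM in light medium in wild-type cells. The groups did not overlap, and the log2 fold change was -0.27 (SE 0.0514, adjusted p = 0.00408). CCNE2, cyclin E2, which activates the kinase CDK2 at G1/S, had 12.7, 9.59 and 12.6 CPM in heavy and 10.8, 10.5 and 10.8 CPM in light medium in the knockout lines, against 14.5, 14.3 and 13.2 CPM in heavy and 13.0, 15.0 and 13.7 CPM in light medium in wild-type cells. Its groups did not overlap either (log2 fold change -0.33, SE 0.0766, adjusted p = 0.00987). CCNE2 overlaps exons of INTS8 on the opposite strand. The close relatives of these genes did not pass. E2F1, another activating E2F, averaged 130 ± 7.66 CPM in knockout and 133 ± 10.2 CPM in wild-type cells (SD, n = 6 each), with a log2 fold change of -0.025 and a 95% interval from -0.13 to 0.079. E2F8, also an atypical E2F, had -0.16 (-0.35 to 0.027), and CCNE1, cyclin E1, 0.042 (-0.090 to 0.17). Whether E2F2 and E2F1, or CCNE2 and CCNE1, differed in their change was not tested.

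**Figure D2:**
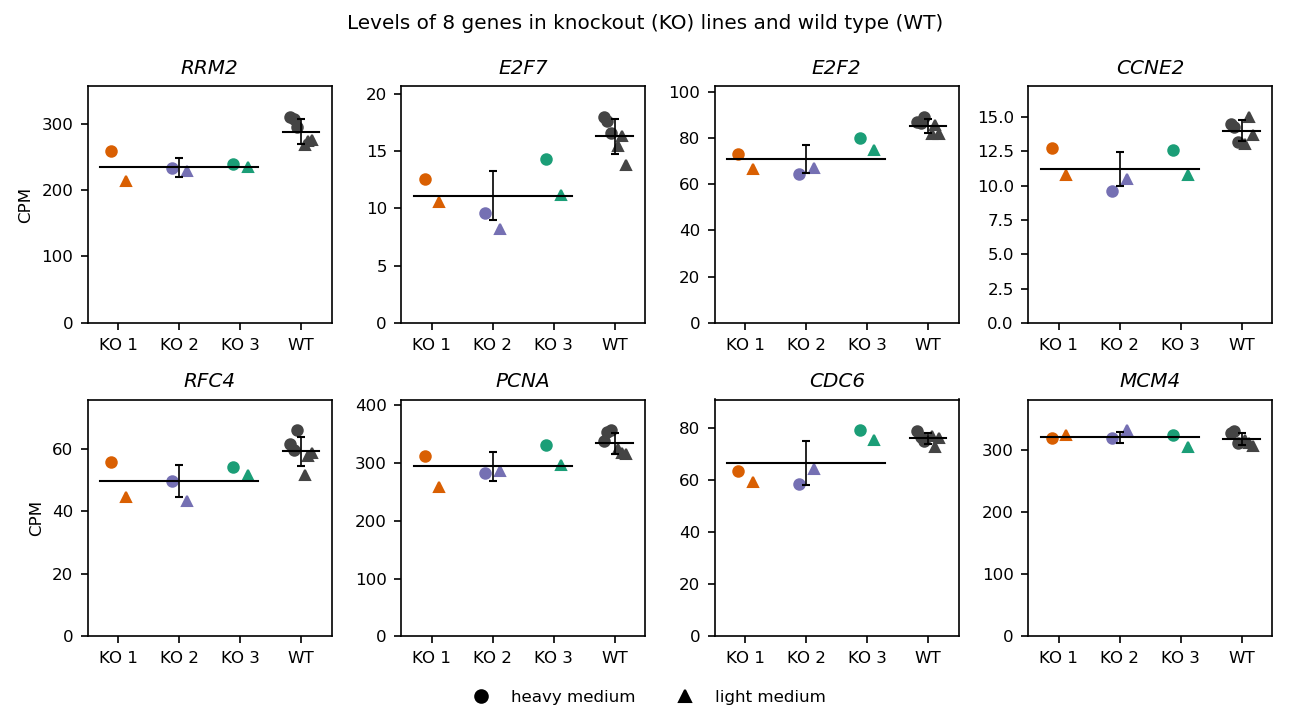
CPM of 8 genes in each library, with knockout lines 1, 2 and 3 (KO) left of wild type (WT); circles are heavy and triangles light medium. Horizontal lines mark the mean of the 6 knockout and of the 6 wild-type libraries and error bars the SD. RRM2, E2F2 and CCNE2 show no overlap, CDC6 is low in lines 1 and 2 and at wild-type level in line 3, and the groups overlap fully for MCM4.

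Among the genes of licensing, 3 of 10 fell: MCM3, MCM7 and ORC6. MCM3 and MCM7 are subunits of the MCM helicase. MCM3 (chromosome 6, 52264009 to 52284881, minus strand) had 387, 356 and 394 CPM in heavy and 345, 370 and 385 CPM in light medium in the knockout lines, against 425, 436 and 425 CPM in heavy and 398, 395 and 395 CPM in light medium in wild-type cells. No knockout library reached the lowest wild-type library, and the log2 fold change was -0.14 (SE 0.0392, adjusted p = 0.0186). MCM7 (chromosome 7, 100092728 to 100101940, minus strand), had 865, 719 and 892 CPM in heavy and 715, 734 and 879 CPM in light medium in the knockout lines, against 866, 960 and 967 CPM in heavy and 898, 932 and 864 CPM in light medium in wild-type cells. Both libraries of line 3 lay within the wild-type range, and the light library of line 1 and both of line 2 were well below it. The log2 fold change was -0.19 (SE 0.0632, adjusted p = 0.0402), and the call held in 4 of the 12 fits that leave out 1 library. The reads of MCM7 cannot be told from those of AP4M1, which overlaps it on the opposite strand, unless the counting used strand, and the sources used here do not give that setting.

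ORC6, the smallest subunit of the origin recognition complex (chromosome 16, 46689643 to 46698394, plus strand), had 52.4, 46.9 and 46.3 CPM in heavy and 37.6, 40.9 and 50.2 CPM in light medium in the knockout lines, against 54.5, 58.4 and 61.4 CPM in heavy and 47.5, 53.1 and 56.1 CPM in light medium in wild-type cells. The groups overlapped across media, since 2 knockout libraries exceeded the lowest wild-type library. The log2 fold change was -0.27 (SE 0.0703, adjusted p = 0.0152). The other helicase subunits did not pass. MCM4 was at 318, 319 and 323 CPM in heavy and 323, 331 and 305 CPM in light medium in the knockout lines, against 327, 330 and 311 CPM in heavy and 316, 311 and 306 CPM in light medium in wild-type cells. The groups overlapped fully, with a log2 fold change of 0.016 and a 95% interval from -0.059 to 0.090 (adjusted p = 0.77). MCM2 had -0.0073 (-0.12 to 0.11), MCM6 0.039 (-0.050 to 0.13) and MCM5 -0.14 (-0.25 to -0.033, adjusted p = 0.0554). ORC1, the large ORC subunit, had -0.20 (adjusted p = 0.0613), CDC6, which loads the helicase with ORC, -0.19 (adjusted p = 0.0663), and CDT1, its partner, -0.12 (adjusted p = 0.223).

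Of the 6 genes of helicase activation, 0 passed in either direction, and 3 were lower at an unadjusted p under 0.05. The log2 fold change was -0.12 for CDC45 (adjusted p = 0.0874), -0.13 for GINS2 (adjusted p = 0.0581) and -0.16 for GINS4 (adjusted p = 0.0813). GINS1, GINS3 and MCM10 lay between -0.048 and 0.034. Of the 7 subunits of the polymerases and primase 1 fell, POLE, the catalytic subunit of polymerase epsilon, which copies the leading strand (chromosome 12, 132623753 to 132687365, minus strand). POLE had 158, 147 and 134 CPM in heavy and 132, 139 and 137 CPM in light medium in the knockout lines, against 151, 156 and 165 CPM in heavy and 152, 162 and 151 CPM in light medium in wild-type cells. The heavy library of line 1 lay inside the wild-type range and the other 5 below it. The log2 fold change was -0.14 (SE 0.0461, adjusted p = 0.0368), and the call held in 5 of the 12 fits that leave out 1 library. The polymerase alpha subunits POLA1 and POLA2 had -0.11 and -0.20 (adjusted p = 0.0724 and 0.0681), the primase subunit PRIM1 -0.12 (adjusted p = 0.109), and POLD1, the catalytic subunit of polymerase delta, 0.0030 with a 95% interval from -0.12 to 0.13.

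Of the 8 genes of clamp loading and strand joining 3 fell, the sliding clamp PCNA and the loader subunits RFC3 and RFC4. PCNA (chromosome 20, 5114953 to 5126626, minus strand) had 311, 283 and 330 CPM in heavy and 258, 286 and 297 CPM in light medium in the knockout lines, against 337, 354 and 356 CPM in heavy and 323, 317 and 315 CPM in light medium in wild-type cells. Each knockout library was below the wild-type libraries of its medium, and only the heavy library of line 3 exceeded the light wild-type libraries. The log2 fold change was -0.18 (SE 0.0457, adjusted p = 0.013). RFC4, a small subunit of the loader (chromosome 3, 186789880 to 186807058, minus strand), had 55.6, 49.5 and 54.1 CPM in heavy and 44.5, 43.2 and 51.5 CPM in light medium in the knockout lines, against 61.5, 59.4 and 65.8 CPM in heavy and 51.6, 57.6 and 58.6 CPM in light medium in wild-type cells. All 6 knockout libraries were below the wild-type libraries of their medium (log2 fold change -0.25, SE 0.0563, adjusted p = 0.008). RFC4 overlaps exons of EIF4A2 on the opposite strand.

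RFC3, another small loader subunit (chromosome 13, 33818049 to 33966558, plus strand), had 89.0, 80.5 and 98.1 CPM in heavy and 77.7, 87.3 and 94.8 CPM in light medium in the knockout lines, against 107, 107 and 99.0 CPM in heavy and 99.8, 98.3 and 99.2 CPM in light medium in wild-type cells. The groups did not overlap, but line 3 in heavy medium, at 98.1 CPM, was close to the lowest wild-type library, at 98.3 CPM (log2 fold change -0.21, SE 0.056, adjusted p = 0.0169). The remaining loader subunits did not pass: RFC1, the large subunit, had -0.017, RFC2 0.041 and RFC5 -0.039. FEN1, which trims Okazaki fragments, had -0.073 (adjusted p = 0.138). LIG1, the ligase that joins them, had 130, 142 and 122 CPM in heavy and 134, 143 and 122 CPM in light medium in the knockout lines, against 112, 127 and 129 CPM in heavy and 123, 125 and 117 CPM in light medium in wild-type cells, with the libraries of lines 1 and 2 above the wild-type range and those of line 3 inside it. Over both media its log2 fold change was 0.12 (SE 0.0526, adjusted p = 0.122).

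Of the 3 genes of chromatin assembly 2 fell. UHRF1, which binds hemimethylated DNA behind the fork and brings in the maintenance methyltransferase (chromosome 19, 4903080 to 4962154, plus strand), had 79.2, 71.9 and 82.4 CPM in heavy and 72.5, 67.3 and 84.6 CPM in light medium in the knockout lines, against 88.2, 97.6 and 94.1 CPM in heavy and 84.7, 88.3 and 86.0 CPM in light medium in wild-type cells. The groups did not overlap, and line 3 in light medium came closest to wild type (log2 fold change -0.23, SE 0.0566, adjusted p = 0.0114). CHAF1A, the large subunit of chromatin assembly factor 1, which places histones on new DNA (chromosome 19, 4402662 to 4445018, plus strand), had 95.4, 90.8 and 106 CPM in heavy and 84.6, 85.9 and 99.3 CPM in light medium in the knockout lines, against 113, 113 and 111 CPM in heavy and 103, 103 and 101 CPM in light medium in wild-type cells. Each knockout library was below the wild-type libraries of its medium (log2 fold change -0.19, SE 0.0487, adjusted p = 0.0134), and the gene overlaps UBXN6 on the opposite strand. CHAF1B, the middle subunit of the same factor, had 0.038 with a 95% interval from -0.084 to 0.16.

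In all, 6 of the 44 genes had every knockout library below every wild-type library, MCM3, RFC3, RRM2, UHRF1, E2F2 and CCNE2, and 0 had every knockout library above, against 4% below and 6.54% above of all genes tested. The summed level of the 44 genes was 5451, 5142 and 5718 CPM in heavy and 4938, 5244 and 5472 CPM in light medium in knockout lines 1, 2 and 3, against 5748, 5995 and 5935 CPM in heavy and 5679, 5666 and 5552 CPM in light medium in wild-type cells. Each knockout sum was below the wild-type sums of its medium, and line 3 was the highest of the lines in both media. As a level per kilobase of annotated exon, PCNA was highest of the 44, at 200 CPM per kilobase in knockout and 227 in wild-type cells. MCM7 followed at 183 and 208, TYMS at 109 and 115, and MCM3 at 102 and 113. E2F7 was the lowest, at 1.76 CPM per kilobase in knockout and 2.59 in wild-type cells. The length takes in every annotated exon of a gene over all its transcripts, so this order depends on the annotation.

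Set against wild type line by line, lines 1 and 2 each had many of the 44 genes lower and line 3 had RRM2 and E2F7. In line 1, 18 genes were lower and 0 higher (40.9% lower, against 12.8% lower and 15.4% higher of all genes tested), with a median log2 fold change of -0.15. In line 2, 19 were lower and 1 higher (43.2% lower, against 20.1% lower and 22.9% higher of all genes), with a median of -0.15. In line 3, 2 were lower and 0 higher (4.55% lower, against 1.73% lower and 3.27% higher of all genes), with a median of -0.030. The medians of all genes tested were -4.44e-05, 0.00207 and 0.00482 in lines 1, 2 and 3. The 3 comparisons share the 6 wild-type libraries, and each rests on 2 libraries of 1 line. The count lower for line 1 was 19 without its heavy library (12.5% lower and 14.8% higher of all genes in that fit) and 1 without its light library (3.03% lower and 6.09% higher). For line 2 it was 7 without its heavy library (11% lower and 14% higher of all genes) and 18 without its light library (15% lower and 17% higher). For line 3 it was 0 without its heavy library (0.647% lower and 1.03% higher of all genes) and 1 without its light library (1.21% lower and 2.11% higher).

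**Figure D3:**
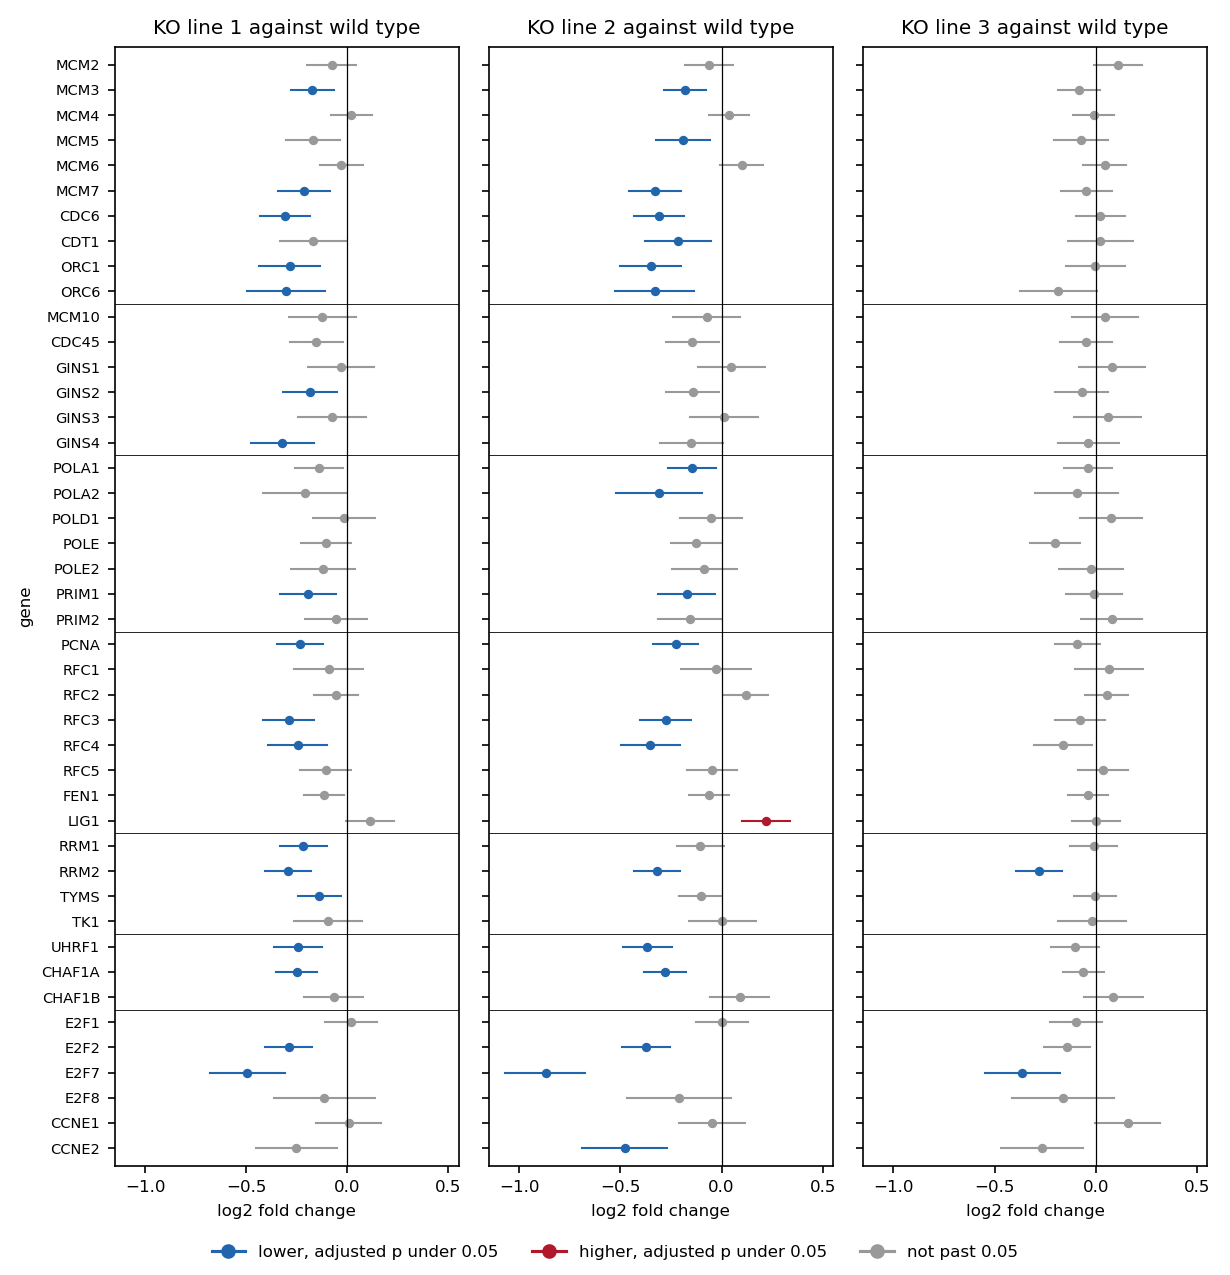
Log2 fold change of knockout over wild type for each of the 44 genes (points) with its 95% interval (bars), for lines 1, 2 and 3. Blue marks genes lower and red genes higher at an adjusted p under 0.05, with counts of 18 and 0 for line 1, 19 and 1 for line 2, 2 and 0 for line 3.

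RRM2 and E2F7 were lower in each of the 3 lines, as 0.802% of all genes tested were, and 0 of the 44 were higher in each, against 2.35% of all genes. RRM2 had nearly the same change in each line, a log2 fold change of -0.29 in line 1 (adjusted p = 0.000494), -0.32 in line 2 (adjusted p = 0.000103) and -0.28 in line 3 (adjusted p = 0.00365). E2F7 had -0.49 in line 1 (adjusted p = 0.000392), -0.87 in line 2 (adjusted p = 6.45e-07) and -0.36 in line 3 (adjusted p = 0.0196), so line 2 kept 0.547 of the wild-type level. The single gene that rose in a line was LIG1 in line 2 (log2 fold change 0.22, SE 0.056, adjusted p = 0.00375); it had 0.11 in line 1 (adjusted p = 0.148) and 0.0029 in line 3 (adjusted p = 0.989). LIG1 lost its call in line 2 when the light library of that line was left out.

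By role, licensing had 5 of 10 genes lower in line 1, 7 of 10 in line 2 and 0 of 10 in line 3. In lines 1 and 2 these included MCM3, MCM7, CDC6, ORC1 and ORC6, and in line 2 also MCM5 (log2 fold change -0.19) and CDT1 (-0.22). Helicase activation had 2 of 6 lower in line 1, GINS2 (-0.18) and GINS4 (-0.32), and 0 of 6 in lines 2 and 3. Polymerase and primase subunits had 1 of 7 lower in line 1, PRIM1 (-0.19), and 3 of 7 in line 2, PRIM1 (-0.17), POLA1 (-0.15) and POLA2 (-0.31), with 0 of 7 in line 3. Clamp, loader and strand joining had 3 of 8 lower in line 1 and in line 2, PCNA, RFC3 and RFC4 in each, and 0 of 8 in line 3. Nucleotide supply had 3 of 4 lower in line 1, RRM1 (-0.22), RRM2 and TYMS (-0.14), and RRM2 alone in lines 2 and 3. UHRF1 and CHAF1A were lower in lines 1 and 2. Of the regulators, E2F2 and E2F7 were lower in line 1, both with CCNE2 in line 2 (-0.48, adjusted p = 0.000746), and E2F7 in line 3. CCNE2 had -0.25 in line 1 (adjusted p = 0.0572) and -0.26 in line 3 (adjusted p = 0.137). PRIM1 and POLA2 share exon sequence on their own strand with other annotated genes, as RRM2 does. Over the full list, 6 genes have such an overlap and 15 overlap exons of a gene on the opposite strand.

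A test of the difference itself, made on the 6 knockout libraries, passed for 1 of the 44 genes, CDC6 (2.27%, against 12.7% of all 16206 genes tested), and 8 were under an unadjusted p of 0.05. CDC6 (chromosome 17, 40287633 to 40304657, plus strand) was at 63.6 and 59.2 CPM for line 1, 58.5 and 64.2 CPM for line 2, and 79.1 and 75.3 CPM for line 3, in heavy and light medium in turn, against 72.7 to 78.7 CPM in wild-type cells. Both libraries of lines 1 and 2 were below the wild-type range, while line 3 was at or just above it. Against wild type the log2 fold change was -0.31 in line 1 (adjusted p = 0.000663), -0.31 in line 2 (adjusted p = 0.000346) and 0.022 in line 3 (95% interval -0.099 to 0.14). The adjusted p for a difference among lines was 0.0332, and CDC6 no longer passed when any 1 of the 4 libraries of lines 2 and 3 was left out, at 0.207 and 0.0788 without the heavy and the light library of line 2 and 0.202 and 0.118 without the heavy and the light library of line 3. It was 0.00213 without the heavy library of line 1.

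The next smallest p among lines belonged to E2F7 (adjusted p = 0.0594), ORC1 (0.0759), UHRF1 (0.115) and MCM7 (0.118), which did not pass. ORC1 was at 36.7 and 31.8 CPM in line 1, 31.9 and 33.5 CPM in line 2 and 43.2 and 40.0 CPM in line 3, against 39.1 to 44.4 CPM in wild-type cells, an order like that of CDC6. When the spread was taken from all 12 libraries, 7 of the 44 differed among lines, 15.9%, against 23.2% of all genes in that fit: CDC6 (adjusted p = 0.00192), E2F7 (0.00665), ORC1 (0.0115), CHAF1A (0.0192), MCM7 (0.0231), UHRF1 (0.0258) and E2F2 (0.0442). RRM2 had an adjusted p of 0.89 in that fit.

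Within a single medium the numbers of libraries were smaller and 0 of the 44 genes passed in either direction. In heavy medium 10 were lower and 0 higher at an unadjusted p under 0.05, and 0% lower and 0.112% higher of all genes passed. In light medium 16 were lower and 0 higher at an unadjusted p under 0.05, and 0.537% lower and 0.906% higher of all genes passed. DESeq2 called 2 of the 44 lower in heavy and 4 in light medium, and the share of all genes that it called is not given. The medians were alike in both media, -0.11 in heavy and -0.11 in light. Without line 3, 7 genes were lower and 0 higher in heavy medium (15.9% lower, against 4.61% lower and 9% higher of all genes in that fit). In light medium 22 were lower and 1 higher without line 3 (50% lower, against 18.4% lower and 20% higher of all genes in that fit). RRM2 had a log2 fold change of -0.33 in heavy (adjusted p = 0.0936) and -0.28 in light medium (adjusted p = 0.0571), and E2F7 had -0.52 (adjusted p = 0.14) and -0.61 (adjusted p = 0.0658). FMR1 itself did not pass in heavy medium (log2 fold change -1.44, adjusted p = 0.18) but passed in light medium (-1.81, adjusted p = 0.000404). The heavy comparison thus missed even the disrupted gene.

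The interaction of genotype and medium passed for 0 of the 44 genes in either direction and for 0% of all genes; 0 of the 44 were under an unadjusted p of 0.05, and DESeq2 also called 0. The smallest p belonged to CDC45, with a difference of log2 fold changes, heavy minus light, of 0.16 (SE 0.0882), then POLE2 (-0.12, SE 0.102) and GINS4 (0.12, SE 0.134), each with an adjusted p of 1. Heavy against light medium passed for 0 of the 44 genes within wild type (0.00631% higher and 0% lower of all genes) and for 0 within knockout (0% of all genes). At an unadjusted p under 0.05, 8 genes were higher in heavy than in light medium in wild-type cells and 2 in knockout cells, with 0 lower in each, and DESeq2 called 0 in both. The share of all genes at that unadjusted threshold is not given, so these counts do not show an excess among the 44. In wild-type cells the smallest p belonged to RRM2, at 310, 307 and 295 CPM in heavy against 267, 273 and 275 CPM in light medium, with no overlap (log2 fold change 0.17, SE 0.0462, adjusted p = 0.76), followed by PCNA (0.14) and CHAF1A (0.14), both with an adjusted p of 0.906. Within knockout lines RFC4 had 0.20, E2F7 0.28 and CDC45 0.14, each with an adjusted p of 1.

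Other genes of the same processes gave context. Of 53 other replication genes 5 were lower and 2 higher over both media, a median of -0.045. That is 9.43% lower and 3.77% higher, against 9.78% lower and 15% higher of all genes tested, so the share lower was near that of all genes. RPA2, a subunit of the complex that coats single-stranded DNA, rose (105 ± 5.76 CPM in knockout, 89.8 ± 3.17 CPM in wild type, SD, n = 6 each; log2 fold change 0.23, adjusted p = 0.00408). RRM2B, the ribonucleotide reductase subunit that p53 induces, rose as well (16.9 ± 2.12 CPM in knockout, 12.7 ± 0.716 CPM in wild type; 0.41, adjusted p = 0.00427), in the opposite direction to RRM2. CDC7, the kinase that fires origins (-0.29, adjusted p = 0.00627), and NASP, a histone chaperone (-0.28, adjusted p = 0.00643), fell. Of 34 tested genes of G1/S control 11 were lower (32.4%) and 2 higher (5.88%), a median of -0.11: CDK2, the partner of cyclin E, fell (71.0 ± 4.44 CPM in knockout, 84.2 ± 3.35 CPM in wild type; -0.25, adjusted p = 0.00267), as did the CDK4/6 inhibitor gene CDKN2C (-0.31, adjusted p = 0.00716) and FBXO5 (-0.23, adjusted p = 0.0126), while CDKN2D, which encodes another CDK4/6 inhibitor, rose (0.43, adjusted p = 0.0103). Of 37 genes of G2/M and mitosis 6 were lower (16.2%) and 0 higher, a median of -0.14, among them KIF20A (-0.22), CCNB2 (-0.38), AURKB (-0.41) and INCENP (-0.21), each with an adjusted p between 0.0106 and 0.0287. On counts summed per line 0 genes of these lists passed in either direction, with 7, 11 and 8 lower and 3, 1 and 0 higher at an unadjusted p under 0.05. DESeq2 counts were not computed for these lists.

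By line, 31 of 37 G2/M genes were lower in line 1, 18 in line 2 with 1 higher, and 0 in line 3 with 0 higher, where the median was 0.017. In line 3 G2/M genes had 0 lower and 1 higher at an unadjusted p under 0.05. G1/S control genes had 15, 17 and 1 lower and 2, 3 and 1 higher in lines 1, 2 and 3, and other replication genes 8, 12 and 0 lower and 2, 6 and 0 higher. All genes tested were lower at 12.8%, 20.1% and 1.73% and higher at 15.4%, 22.9% and 3.27% in lines 1, 2 and 3. Shares lower were 83.8%, 48.6% and 0% for G2/M genes, 44.1%, 50% and 2.94% for G1/S control genes, and 15.1%, 22.6% and 0% for other replication genes, the last near those of all genes. For the 44 genes the library medians of line 3 were nearest to wild type in both media, and the lowest library median was that of line 2 in heavy medium (-0.17) and that of line 1 in light medium (-0.20). For G2/M genes line 1 was lowest in both media (-0.20 in heavy and -0.32 in light), and line 3 was near 0 (0.049 in heavy and -0.016 in light, against -0.0096 and -0.039 for the 44 genes).

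**Figure D4:**
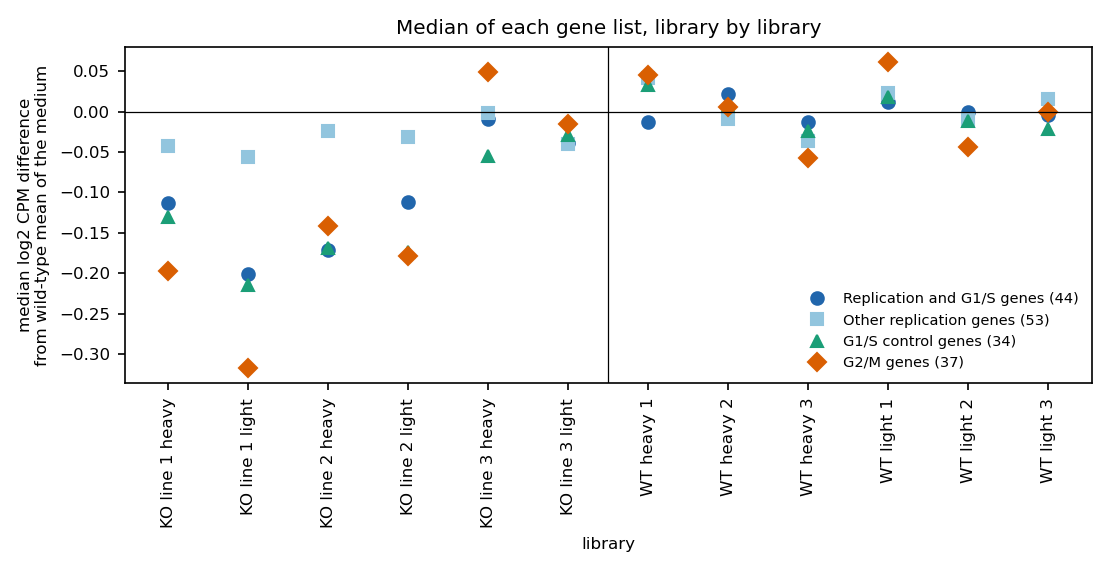
Median, for each gene list, of the difference of log2 CPM from the wild-type mean of the same medium, in each library, with knockout libraries (KO, by line) left of wild-type libraries (WT). The 4 libraries of lines 1 and 2 lie between -0.11 and -0.20 for the 44 genes and between -0.14 and -0.32 for G2/M genes, and those of line 3 near 0.

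Because E2F factors act on many of these genes, the promoters were searched for letters that E2F sites and the CCAAT box hold, in RefSeq windows of GRCh38.p14 from 250 bases before to 50 bases after a gene's start, which were at hand for 39 of the 44 genes. An E2F motif (TTTCGCGC, TTTGGCGC, TTTCCCGC or TTTGCCGC, on either strand) was in 20 of 39 windows, 51.3%, against 5.27% of the 10975 windows of genes tested and 3.33% of all 27305. CCAAT, on either strand, was in 22 of 39, 56.4%, against 36.3% of windows of genes tested and 35.7% of all. TTTGAA, the core of the element that marks many G2/M promoters, was in 1 of 39, 2.56%, against 9.4% of windows of genes tested and 15.4% of all. Over both media 7 of the 20 genes with an E2F motif were lower and 5 of the 19 without, and 9 of the 22 with CCAAT were lower and 3 of the 17 without; medians were -0.12 with and -0.073 without an E2F motif, and -0.14 with and -0.041 without CCAAT. Shares lower among all genes with and without each motif were not computed, and a link of motif to change was not tested. These are descriptions of letters in a window and not of binding.

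Stretches were taken for the genes with the smallest p over both media that had a window. The 4 with a long enough run of bases outside annotated exons are printed here, kept to those bases. E2F and CCAAT matches are in capitals, and each stretch is read 5′ to 3′ on the gene's strand. E2F7 (chr12:77065581-77065819, minus strand) holds 4 CCAAT matches, all on the reverse strand, and no E2F motif. E2F2 (chr1:23531234-23531483, minus strand) holds 1 E2F motif and no CCAAT. UHRF1 (chr19:4909251-4909429, plus strand) holds 1 CCAAT here, and a further E2F motif lies nearer the start than the bases shown. The RefSeq start used for UHRF1 lies inside the gene position given above (4903080 to 4962154). Its stretch is therefore not upstream of that position. PCNA (chr20:5126627-5126785, minus strand) holds 3 CCAAT matches and 1 E2F motif.
E2F7: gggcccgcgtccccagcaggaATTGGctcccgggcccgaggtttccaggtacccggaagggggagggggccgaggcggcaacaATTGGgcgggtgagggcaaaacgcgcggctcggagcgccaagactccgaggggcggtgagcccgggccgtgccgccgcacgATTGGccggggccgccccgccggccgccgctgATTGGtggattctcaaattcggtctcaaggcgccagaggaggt
E2F2: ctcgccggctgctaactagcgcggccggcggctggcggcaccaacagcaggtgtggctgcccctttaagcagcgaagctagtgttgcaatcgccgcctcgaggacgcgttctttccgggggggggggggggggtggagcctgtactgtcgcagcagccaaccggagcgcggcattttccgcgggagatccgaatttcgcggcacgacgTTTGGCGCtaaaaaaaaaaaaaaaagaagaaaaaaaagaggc
UHRF1: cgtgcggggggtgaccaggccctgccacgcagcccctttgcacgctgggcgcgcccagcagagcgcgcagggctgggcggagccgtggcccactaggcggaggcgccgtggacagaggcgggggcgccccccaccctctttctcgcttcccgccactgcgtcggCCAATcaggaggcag
PCNA: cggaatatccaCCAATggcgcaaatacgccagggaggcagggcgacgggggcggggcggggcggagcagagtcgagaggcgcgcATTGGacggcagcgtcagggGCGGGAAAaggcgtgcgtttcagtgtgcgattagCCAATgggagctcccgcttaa
The window of RRM2 holds 3 CCAAT matches and no E2F motif, and that of RFC4 neither. Upstream of the RefSeq start, both windows also lie inside the gene positions given above.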

How the data were processed

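Poly(A) RNA was sequenced from 12 libraries made with a stranded kit from TRIzol RNA, per the labels' protocols. The values are whole-number counts per gene, deposited by the authors as 1 table. Per the submitters' processing notes the tools were bcl2fastq 2.19.0, STAR 2.7.0f, featureCounts of Subread 1.6.4, DESeq2 1.22.1 and R 3.5.1, with GRCh38.p13 as the build; for the counting, the annotation release and the strand setting were not given in the sources used here.

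From the counts, CPM were computed with TMM factors. Genes passing filterByExpr were tested with edgeR 4.0.16 (robust quasi-likelihood F test, Benjamini-Hochberg adjustment over all genes tested, threshold 0.05) in R 4.3.3. Knockout was set against wild type with medium as covariate (both media), within each medium, on counts summed per line, and line by line. Differences among lines, the interaction and the media were tested as well. Intervals of 95% use the t distribution with the fit's degrees of freedom. The scripts were tested on simulated data. Alternatives were RLE factors, DESeq2 1.42.0, limma 3.58.1 (voom with line as correlated block), other filters, the replicate number as a block, and leaving out libraries or lines. Replicate numbers mark the lines, which pair the heavy and light knockout libraries; they do not pair knockout with wild type.

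Positions and exon lengths come from GENCODE v29 (GRCh38) and promoters from RefSeq (GRCh38.p14). The genes and lists were chosen with earlier results of these data known. Library values in full were given by rule to genes called over both media and on summed counts or in each line, filled up by smallest p, and to the 3 of highest mean CPM; up to 5 genes were named for lines, 3 for media and interaction, and 4 for each other list.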

Additional observations from a re-analysis of the deposited data

Results flagged for a closer look

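CDC6 differed among the knockout lines by a test on the 6 knockout libraries (edgeR quasi-likelihood F test, adjusted p = 0.0332). Its log2 fold change against wild type was -0.31 in line 1, -0.31 in line 2 and 0.022 in line 3, with both libraries of lines 1 and 2 below the wild-type range and neither library of line 3 below it. Across the alternatives the adjusted p ran from 0.00159 to 0.207.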

How the results depend on the processing

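Of the 13 genes lower over both media, RRM2, RFC4, UHRF1, E2F2, E2F7 and CCNE2 were called under all 21 alternatives, MCM3, ORC6 and PCNA under 20, RFC3 and CHAF1A under 19, and MCM7 and POLE under 10. The count was 14 with RLE factors, 21 with DESeq2, 17 with the filter at 1 CPM, 11 with line as a correlated block, 8 without line 1, 8 without line 2 and 24 without line 3 (where 1 was higher); leaving out single libraries gave 11 to 23, with 23 without the heavy and 20 without the light library of line 3. In heavy medium the count of 0 lower became 2 with DESeq2, 2 with no filter and 1 with the spread from all 12 libraries (0 to 7 without single libraries). In light medium it became 4, 3 and 2 (0 to 22 lower and 0 to 1 higher without single libraries). On summed counts the 1 lower gene became 10 with DESeq2 and 5 with no filter (0 to 4 without single libraries). Without single libraries line 1 had 1 to 23 lower, line 2 had 7 to 21 lower and 0 to 1 higher, and line 3 had 0 to 3 lower. The 1 gene that differed among lines became 2 with RLE factors, 4 with no filter and, in an alternative chosen after seeing the data, 7 with the spread from all 12 libraries (0 to 5 without single libraries). The cause of these changes was not tested. Shares of all genes are given above for part of these fits only, so counts under the others do not show an excess among these genes. Among 1868 values of 19 named genes under alternatives, 11 changed sign, all of MCM4, POLE, CDC6 or ORC1 in comparisons where the gene was not called; the other genes were not recomputed. Same-numbered knockout and wild-type libraries of 1 medium had correlations of deviations from -0.105 to -0.0134, and across media from -0.126 to 0.0115, so they share only a number; with the replicate number as a block 15 genes were lower over both media, 0 within either medium and 0 with counts summed, where RRM2 had an adjusted p of 0.0767. Each line rests on 2 libraries, which limits what the line tests can show.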

Other observations

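Several regulators of G1/S, chosen after their values were seen, differed among the lines. CDKN1A, which encodes the CDK inhibitor p21, was at 23.4, 22.3 and 48.5 CPM in heavy and 26.1, 22.5 and 51.6 CPM in light medium in knockout lines 1, 2 and 3, against 20.2, 22.4 and 23.5 CPM in heavy and 23.8, 24.4 and 22.7 CPM in light medium in wild-type cells. Both libraries of line 3 were far above the rest, with a log2 fold change of 1.13 in line 3 (adjusted p = 7.06e-09), against 0.12 in line 1 (adjusted p = 0.247) and -0.025 in line 2 (adjusted p = 0.816), and an adjusted p among lines of 7.64e-05 (edgeR). Line 3 was the line with 2 of the 44 replication genes lower.

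SKP2, which targets the CDK inhibitor p27 for degradation, had a log2 fold change of -0.47 in line 1, -0.83 in line 2 and -0.098 in line 3 (edgeR, adjusted p among lines 0.00139). TFDP2, a dimer partner of the E2Fs, had -0.42, -0.93 and -0.10 in lines 1, 2 and 3 (adjusted p among lines 0.000412). CDKN2A, which encodes the CDK4/6 inhibitor p16, had -1.17 in line 1 (adjusted p = 0.0012), 1.13 in line 2 (adjusted p = 8.38e-05) and -0.53 in line 3 (adjusted p = 0.198), so lines 1 and 2 differed from wild type in opposite directions (adjusted p among lines 0.000622). Its levels were low, at 1.77, 6.43 and 2.11 CPM in heavy medium in lines 1, 2 and 3. They were 1.05, 7.49 and 2.26 CPM in light medium, against 2.47 to 4.29 CPM in wild-type cells.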
